A study of Mus musculus with 4 samples.

Results

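The genes described here are 34 genes of sterol and fatty acid synthesis measured in fibroblasts grown from mouse embryos (MEFs). These primary cells of connective tissue stop dividing after repeated passaging. They were chosen by name, as the genes whose RefSeq transcripts the array's probes cite, and comprise 18 genes of the sterol arm, 10 of the fatty acid arm, and 6 regulators with a sterol carrier. Through that citation 32 of the 34 had a probe. Hmgcs1 and Idi1, of the sterol arm, matched no probe and are not analysed here. The 32 genes were read by 54 probes, among 17466 genes with a matched probe and 13823 that were tested.

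The comparison sets passage 7 cells, in which replicative senescence (a lasting arrest of division) was setting in, against growing passage 2 cells. Both passages came from the same kind of culture, without a named strain, genotype or drug, in DMEM medium with 10% fetal bovine serum, and each was read on 2 arrays with 1 colour. Per the labels, RNA of 3 independent cultures was pooled for the arrays. The 2 arrays of a passage may then be technical repeats, in which case a p-value covers array-to-array spread alone. Serum carries lipoproteins and fatty acids, and what the cells took up from it was not measured.

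Cells build cholesterol from acetyl-CoA through mevalonate, squalene and lanosterol, and build palmitate from the same acetyl-CoA, which elongases and desaturases then lengthen and unsaturate. Many genes of both routes are known targets of the sterol regulatory element-binding proteins (SREBPs). These transcription factors are held in the endoplasmic reticulum by Scap and the Insig proteins while sterol is plentiful, and are cut free in the Golgi when it is scarce. Dividing cells need both products for new membrane.

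The 4 arrays shared 1 slide and 1 scan. Each passage had its own slide positions, so passage and position cannot be told apart. The 75th percentile of signal was 964 and 402 on the passage 7 arrays, against 1024 and 1404 on the passage 2 arrays, and 65.8% to 72.7% of probes were well above background. All 54 probes of the members were well above background on all 4 arrays, so all 32 genes were tested and none had to pass through 1 passage alone. Levels are log2 signal minus that of the array's 75th percentile. A change is the passage 7 mean minus the passage 2 mean on that scale. A level of 1 probe cannot be set against that of another. A gene is called where limma's adjusted p was under 0.05 and the change was at least 2-fold. On this scale the median change of all genes was 0.20, so a gene at 0 lay slightly below the typical gene. In bulk RNA, fewer cells of a type and less RNA per cell cannot be told apart. Of the fibroblast markers, 10 of 10 with a tested probe were well above background on all 4 arrays. Fn1 and Thy1, a matrix protein and a surface antigen of fibroblasts, were among them.

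Of the sterol and fatty acid genes, 5 were called lower at passage 7, and most of the others read lower by smaller amounts that were not called. The called genes were Elovl6, Fads2 and Elovl5 of the fatty acid arm and Cyp51 and Hsd17b7 of the sterol arm. No member was called higher. The 5 called genes are 15.6% of the 32 members, beside 9.46% of all genes called lower and 10% called higher. At an adjusted p under 0.05 with no minimum fold, 9 members were lower and 1 was higher, beside 11.9% and 13.4% of all genes. The 2 passages did not overlap for 19 members that were lower and 4 that were higher, 59.4% and 12.5% of the members, beside 27.8% and 40.6% of all genes. The number called lower was 10 under quantile normalisation and 0 with normexp background correction. It was 1 without either passage 7 array, 5 without passage 2 replicate 1 and 2 without passage 2 replicate 2.

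**Figure D1:**
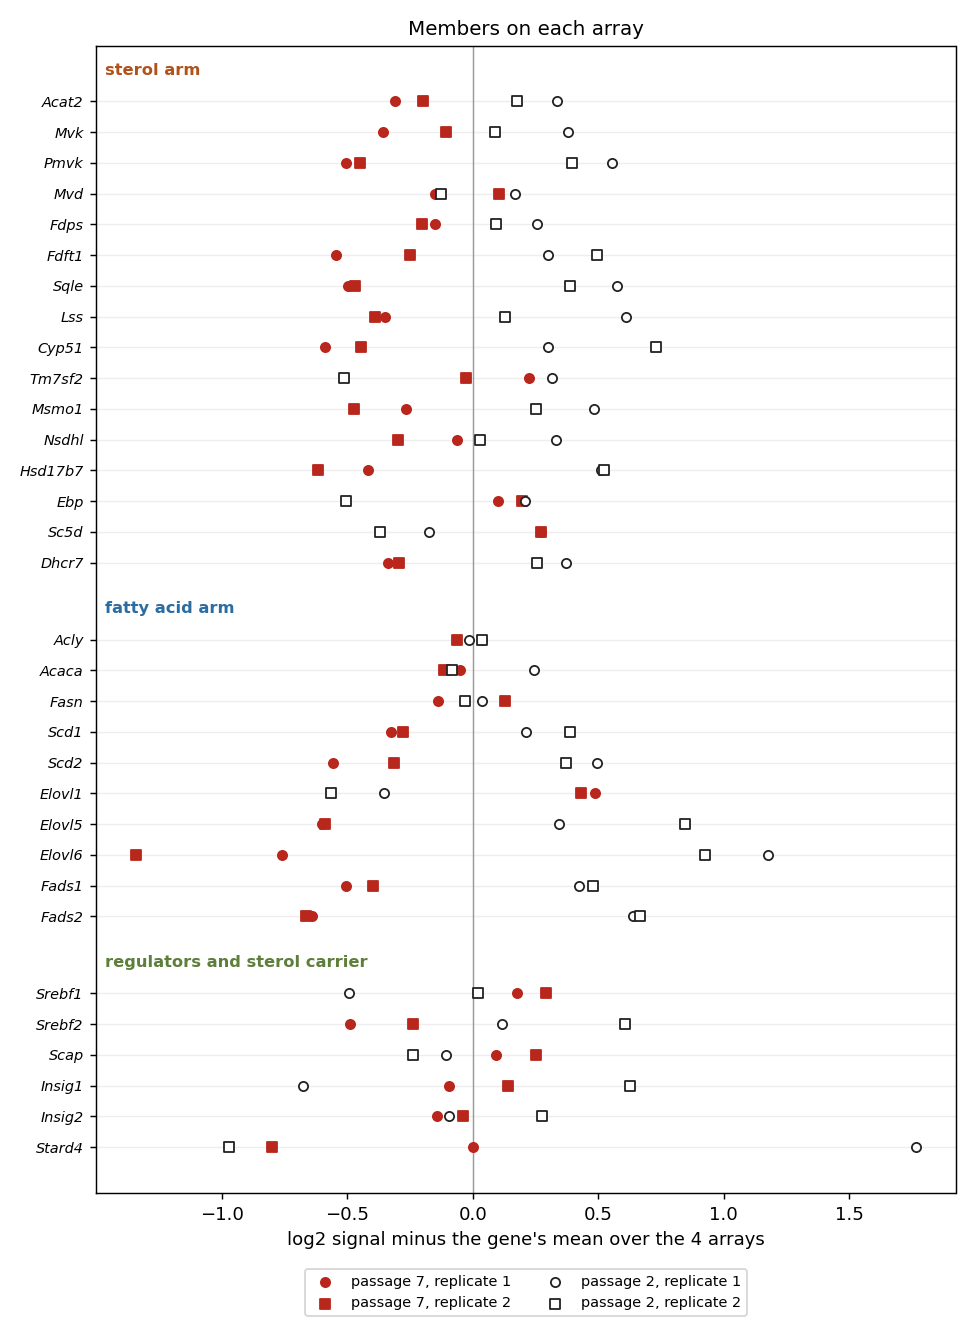
Level of each of the 32 genes on each of the 4 arrays, as log2 signal minus the gene's own mean over the arrays. Filled red symbols are the passage 7 arrays and open symbols the passage 2 arrays, with circles for replicate 1 and squares for replicate 2. In 19 genes both passage 7 symbols lie left of both passage 2 symbols, and in 4 they lie right of them.

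The promoters of the 5 called genes are shown because these genes carry the result and SREBP targets often hold partner sites for NF-Y and Sp1 close to the start. Each line gives the 250 bases before the RefSeq start (GRCm38.p6), written 5′ to 3′ on the gene's strand. Capitals mark matches, on either strand, to the NF-Y box CCAAT, the GC box GGGCGG and the E-box CACGTG. A match on the other strand appears as its reverse complement. A strict sterol regulatory element core, TCACNCCAC, was searched as well and matched none of the 5. It matched 1 of the 27 members with a promoter window, so the lack of a match does not show that these genes lack such an element.
Elovl6 (chr3:129532136-129532385, plus strand): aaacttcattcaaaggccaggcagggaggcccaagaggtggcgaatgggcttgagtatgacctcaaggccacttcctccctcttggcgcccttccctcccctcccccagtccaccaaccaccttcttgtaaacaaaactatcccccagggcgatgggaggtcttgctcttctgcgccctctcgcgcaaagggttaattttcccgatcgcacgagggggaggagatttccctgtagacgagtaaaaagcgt
Elovl5 (chr9:77917115-77917364, plus strand): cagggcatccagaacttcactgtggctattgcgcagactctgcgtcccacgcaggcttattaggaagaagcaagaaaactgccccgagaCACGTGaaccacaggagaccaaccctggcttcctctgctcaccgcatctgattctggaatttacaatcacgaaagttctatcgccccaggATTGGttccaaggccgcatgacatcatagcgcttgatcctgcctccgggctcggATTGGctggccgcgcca
Fads2 (chr19:10101504-10101753, minus strand): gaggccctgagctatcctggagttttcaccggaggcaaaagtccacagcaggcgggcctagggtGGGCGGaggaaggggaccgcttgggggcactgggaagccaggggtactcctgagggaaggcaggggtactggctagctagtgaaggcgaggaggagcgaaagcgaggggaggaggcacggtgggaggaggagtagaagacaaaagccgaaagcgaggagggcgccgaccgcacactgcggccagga
Cyp51 (chr5:4104698-4104947, minus strand): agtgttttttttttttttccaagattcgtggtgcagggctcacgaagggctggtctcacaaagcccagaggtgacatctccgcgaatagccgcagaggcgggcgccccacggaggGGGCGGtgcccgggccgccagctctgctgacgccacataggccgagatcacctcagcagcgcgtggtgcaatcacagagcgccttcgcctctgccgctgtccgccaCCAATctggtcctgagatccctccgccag
Hsd17b7 (chr1:169969206-169969455, minus strand): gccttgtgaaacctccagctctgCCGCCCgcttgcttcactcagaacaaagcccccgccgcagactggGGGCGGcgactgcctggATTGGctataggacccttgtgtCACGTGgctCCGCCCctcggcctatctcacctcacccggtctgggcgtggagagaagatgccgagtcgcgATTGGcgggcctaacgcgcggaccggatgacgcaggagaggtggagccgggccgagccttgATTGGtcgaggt
The Hsd17b7 stretch held 3 NF-Y boxes, 3 GC boxes and 1 E-box, and that of Elovl6 held none of the motifs searched.

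Elovl6, the elongase that turns palmitate into stearate, had the largest difference of the 32 members. Its level was -0.13 and -0.72 on the passage 7 arrays, against 1.80 and 1.55 on the passage 2 arrays. The passages were far apart compared with the gap inside either. Elovl6 was 4.29-fold lower at passage 7, a log2 change of -2.10 ± 0.27 (SE; limma adjusted p = 0.012). Its call held when any single array was left out.

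Elovl5, which elongates polyunsaturated fatty acids, read 1.92 and 1.92 at passage 7, against 2.86 and 3.36 at passage 2. The passage 7 arrays were nearly equal, and the passage 2 arrays differed from each other by less than from them. The fall was 2.28-fold (log2 -1.19 ± 0.24, limma adjusted p = 0.029). Elovl1, the elongase of very long saturated chains, went the other way. It read -1.76 and -1.82 at passage 7, against -2.60 and -2.81 at passage 2, without overlap. Its change of 0.92 ± 0.19 passed the adjusted p (0.03, limma) and stayed short of 2-fold. Of the 3 elongases among the members, 2 were therefore called lower and 1 stood higher. Without passage 2 replicate 1, Elovl1 was called higher (1.02, limma adjusted p = 0.042).

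The 4 desaturases all read lower at passage 7 without overlap, as did 27.8% of all genes, and 1 of the 4 was called. Fads2, which acts at the entry of polyunsaturated fatty acid synthesis, read -2.16 and -2.19 at passage 7, against -0.88 and -0.86 at passage 2. Replicates lay within 0.03 of each other. It was called lower by 2.47-fold (log2 -1.31 ± 0.17, limma adjusted p = 0.012). Fads1, the desaturase that follows it in that route, read 4.22 and 4.33 at passage 7, against 5.15 and 5.21 at passage 2. Its change of -0.90 ± 0.18 passed the adjusted p (0.027, limma) and not the fold. The stearoyl-CoA desaturases make monounsaturated fatty acids. Scd2 read 6.15 and 6.39 at passage 7, against 7.20 and 7.08 at passage 2, a change of -0.87 ± 0.19 (limma adjusted p = 0.037). Scd1 read 3.04 and 3.09 at passage 7, against 3.58 and 3.75 at passage 2. Its change of -0.60 ± 0.18 did not pass (limma adjusted p = 0.074).

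None of the 3 enzymes that make palmitate itself was called. Acly, which makes cytosolic acetyl-CoA from citrate, read 3.06 and 2.96 at passage 7, against 3.01 and 3.06 at passage 2. Acaca, the acetyl-CoA carboxylase, read 2.63 and 2.57 at passage 7, against 2.93 and 2.60 at passage 2. Fasn, the fatty acid synthase, read 0.19 and 0.46 at passage 7, against 0.37 and 0.30 at passage 2. In all 3 the passages overlapped and limma's adjusted p was 0.58 or above. The 95% intervals of their changes ran from -0.49 to 0.44 for Acly, from -0.70 to 0.37 for Acaca and from -0.52 to 0.50 for Fasn, so a change of up to about these sizes in either direction was not resolved. The second Fasn probe read a change of -0.51 (limma adjusted p = 0.13 over all probes) and the probe with the higher signal -0.01.

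**Figure D2:**
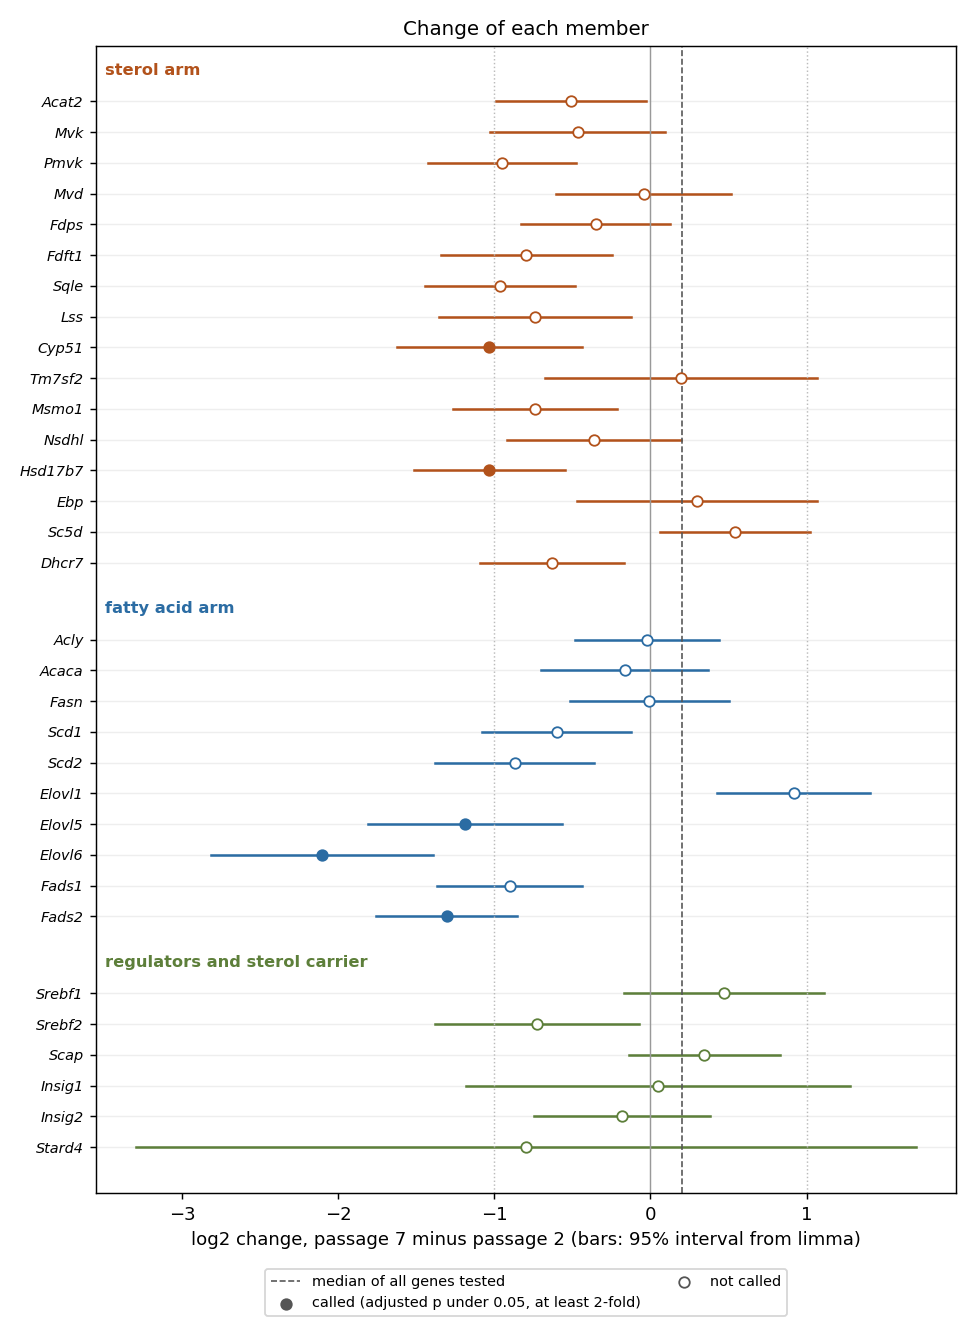
Log2 change of each member, passage 7 minus passage 2, with the 95% interval from limma, grouped by arm. Filled symbols are called genes, the dashed line is the median of all genes (0.20) and dotted lines mark 2-fold. The 5 filled symbols lie at -1.03 or below, and the interval of Stard4 is the widest.

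In the sterol arm 2 of the 16 tested genes were called lower, 12.5% beside 9.46% of all genes. Both act between lanosterol and cholesterol, while Pmvk and Sqle, of earlier steps, stood just short of 2-fold (-0.95 and -0.96). Cyp51, the lanosterol demethylase, read -3.36 and -3.22 at passage 7, against -2.47 and -2.05 at passage 2. The passages did not overlap, and the passage 2 arrays were the further apart. Its change was -1.03 ± 0.23, a fall of 2.04-fold (limma adjusted p = 0.036). Hsd17b7, the ketosteroid reductase of the complex that strips methyl groups from the sterol ring, read 1.49 and 1.30 at passage 7, against 2.42 and 2.43 at passage 2. Its change was -1.03 ± 0.18, a fall of 2.05-fold (limma adjusted p = 0.022). Both lie just past 2-fold, and both calls were lost without passage 7 replicate 1 (-0.96 and -1.13), without passage 7 replicate 2 (-1.10 and -0.93) and without passage 2 replicate 2 (-0.82 and -1.03), where limma's adjusted p ran from 0.062 to 0.18. Leaving out either passage 7 array also ended the calls of Elovl5 and Fads2 (limma adjusted p from 0.068 to 0.13), and that of Elovl5 was lost without passage 2 replicate 2 (-0.94, limma adjusted p = 0.06). Over all alternatives run, limma's adjusted p ran from 0.000081 to 0.56 for Elovl6, from 0.0016 to 0.79 for Fads2, from 0.0018 to 0.56 for Elovl5, from 0.0056 to 0.88 for Cyp51 and from 0.0035 to 0.56 for Hsd17b7. The highest of these came with normexp, which left no gene on the array called.

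At the head of the sterol arm, 4 of the 5 tested enzymes from acetyl-CoA to farnesyl diphosphate read lower at passage 7 without overlap, and none was called. Among all genes 27.8% read lower without overlap. Pmvk, the phosphomevalonate kinase, read 2.82 and 2.88 at passage 7, against 3.88 and 3.72 at passage 2. Its change of -0.95 ± 0.18 passed the adjusted p (0.025, limma) and missed 2-fold. Acat2, the thiolase that joins acetyl-CoA units, differed by -0.51 ± 0.18, Mvk, the mevalonate kinase, by -0.47 ± 0.21 and Fdps, the farnesyl diphosphate synthase, by -0.35 ± 0.18, none of which passed (limma adjusted p = 0.11, 0.17 and 0.21). Mvd, the decarboxylase that follows Pmvk, read 3.13 and 3.38 at passage 7, against 3.44 and 3.15 at passage 2. The passages overlapped, with a change of -0.04 ± 0.21.

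The 3 enzymes that carry farnesyl diphosphate to lanosterol all read lower without overlap, beside 27.8% of all genes, and none was called. Sqle, the squalene epoxidase, read 3.59 and 3.61 at passage 7, against 4.66 and 4.47 at passage 2, a change of -0.96 ± 0.18 (limma adjusted p = 0.025) that missed 2-fold. Fdft1, the squalene synthase, differed by -0.79 ± 0.21 (limma adjusted p = 0.053), and turned to 0.84 under normexp. Lss, the lanosterol synthase, differed by -0.74 ± 0.23 (limma adjusted p = 0.081), and its 3 probes gave -0.76 to -0.73.

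Of the 8 enzymes from lanosterol to cholesterol, 5 read lower without overlap, 1 higher without overlap and 2 overlapped. The shares of all genes without overlap were 27.8% lower and 40.6% higher. Beside Cyp51 and Hsd17b7, Msmo1, the methylsterol monooxygenase, differed by -0.74 ± 0.20 (limma adjusted p = 0.057), and Dhcr7, a reductase of the last step, by -0.63 ± 0.18 (limma adjusted p = 0.062). Nsdhl, the dehydrogenase of the demethylation complex, differed by -0.36 ± 0.21 (limma adjusted p = 0.26), and turned to 0.87 under normexp. Sc5d, the sterol desaturase, read 1.81 and 1.80 at passage 7, against 1.36 and 1.16 at passage 2. It was the only sterol arm gene above passage 2 on both arrays, by 0.54 ± 0.18, and did not pass (limma adjusted p = 0.093). Ebp, the sterol isomerase, and Tm7sf2, a sterol reductase, overlapped between passages, with changes of 0.30 ± 0.29 and 0.20 ± 0.33. Their sign turned without passage 2 replicate 2, to -0.06 and -0.22. Under quantile normalisation Ebp was at -0.07, and in the authors' value table Tm7sf2 was at -0.13.

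The sterol arm had a median change of -0.57, 0.77 below the median of all genes, with 14 of its 16 genes below that median and 13 below 0. The fatty acid arm had a median change of -0.73, 0.93 below the median of all genes, with 9 of its 10 genes below it, the same 9 being below 0. Among all genes 50% lie below the median by construction, and 39.4% lie below 0. The sterol arm median was higher than the fatty acid arm median by 0.16, with an SD between replicates of 0.14. Over the 4 ways of setting a passage 7 array against a passage 2 array, this difference ran from 0.0082 to 0.34. The difference of the arms was thus close to the spread between arrays, and the 4 pairings share arrays. Within the arms, changes ran from -1.03 to 0.54 in the sterol arm and from -2.10 to 0.92 in the fatty acid arm, and the medians by step were -0.47, -0.79 and -0.50 along the sterol arm, against -0.02 for palmitate synthesis, -1.19 for the elongases and -0.88 for the desaturases.

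**Figure D3:**
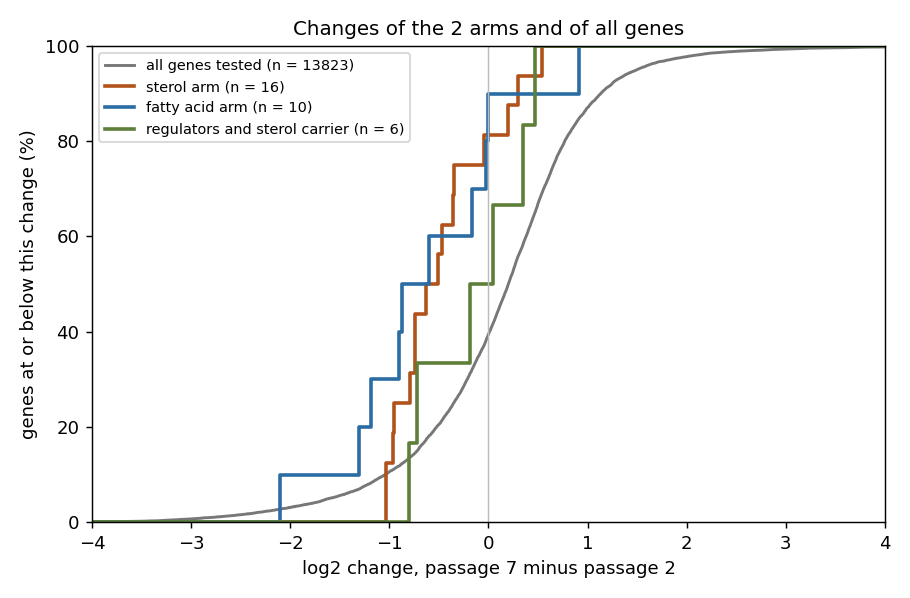
Cumulative share of genes (vertical axis, percent) at or below each log2 change, passage 7 minus passage 2 (horizontal axis), for the sterol arm (n = 16), the fatty acid arm (n = 10), the 6 regulators and carrier, and all 13823 genes tested. The curves of both arms lie left of that of all genes over most of their range and cross each other.

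Array by array, each gene was taken relative to its own mean over the arrays, and the median of all genes on that array was subtracted from an arm's median. For the sterol arm this was -0.34 and -0.43 at passage 7, against 0.34 and 0.32 at passage 2. For the fatty acid arm it was -0.43 and -0.45 at passage 7, against 0.30 and 0.54 at passage 2. Neither arm overlapped between passages. For the regulators and the carrier it was -0.06 and -0.10 at passage 7, against -0.10 and 0.31 at passage 2, which overlapped.

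None of the 6 regulators and carrier genes was called, and none passed the adjusted p alone. Srebf2, whose protein mainly drives sterol synthesis, read 0.64 and 0.89 at passage 7, against 1.25 and 1.74 at passage 2. Its passages did not overlap, and its change of -0.73 ± 0.25 did not pass (limma adjusted p = 0.096). All 3 Srebf2 probes read lower, at -0.73 to -0.64. Srebf1, whose protein mainly drives fatty acid synthesis, read -1.23 and -1.11 at passage 7, against -1.89 and -1.38 at passage 2, a change of 0.47 ± 0.24 (limma adjusted p = 0.22). It was the only member with probes of opposite sign, at 0.47, 0.58 and -0.16. Transcript levels of these factors do not show how much of the protein was cut and active, which was not measured.

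Scap, the sterol sensor that escorts the SREBPs, differed by 0.35 ± 0.18 without overlap and did not pass (limma adjusted p = 0.23). Its sign turned in the authors' value table (-0.07) and under quantile normalisation (-0.12). Insig2, an anchor of Scap, differed by -0.18 ± 0.21 with overlap. Insig1, the other anchor and itself an SREBP target, read 3.36 and 3.59 at passage 7, against 2.77 and 4.08 at passage 2. The passage 2 arrays lay on both sides of the passage 7 arrays, and the second Insig1 probe showed the same order, with 2.97 and 3.17 at passage 7, against 2.25 and 3.55 at passage 2. Only 3.29% of all genes differed at least as much between the passage 2 arrays. The change of Insig1 was 0.05 ± 0.47, and it was 0.70 without passage 2 replicate 2 and -0.60 without passage 2 replicate 1.

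Stard4, a cytosolic sterol carrier, read -0.87 and -1.67 at passage 7, against 0.90 and -1.84 at passage 2. The passage 2 arrays differed by 2.74, a gap that only 0.42% of all genes reached, and the single Stard4 probe was well above background on each. Its change of -0.80 ± 0.95 did not pass (limma adjusted p = 0.56) and turned to 0.57 without passage 2 replicate 1. Insig1 and Stard4 went opposite ways between these arrays, Insig1 being the lower and Stard4 the higher on replicate 1. No direction can be given for either.

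Of the 32 genes, 16 had more than 1 probe, and 15 of these had the same sign at every probe. The median range between probes of a gene was 0.11. When every probe on the array was tested by itself, 5 of the 54 member probes were called lower, a share near the 8.55% of all probes. None was called higher, beside 8.73% of all probes. At the adjusted p alone, 11 of the 54 were lower and 1 higher, beside 9.48% and 9.86% of all probes. The probe representing Hsd17b7 gave -1.03 and its other probes -0.87 and -0.80, while the pair of Cyp51 probes gave -1.03 and -0.92. Neither gene reached 2-fold on the mean of its probes, at -0.90 for Hsd17b7 and -0.97 for Cyp51. Elovl5, Elovl6 and Fads2 each had 1 probe.

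**Figure D4:**
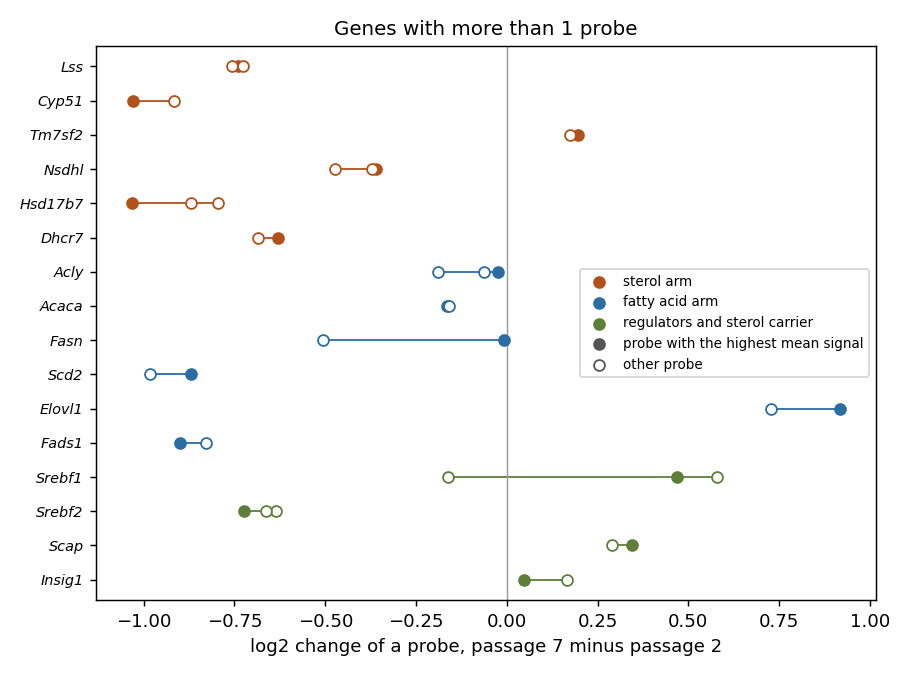
Log2 change, passage 7 minus passage 2, at each probe of the 16 member genes with more than 1 probe. Filled symbols are the probes with the highest mean signal, which represent the gene elsewhere, and a line joins the probes of a gene. The lines are short except for Fasn and Srebf1, and that of Srebf1 alone crosses 0.

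Promoter windows of 300 bases, the 250 before the start and the 50 after it, were at hand for 27 of the 34 members, Hmgcs1 and Idi1 among them. An NF-Y box was found for 14 of 15 sterol arm genes (93.3%), 4 of 7 fatty acid arm genes and 4 of 5 regulators, beside 41.1% of all 27025 genes with a window and 42.9% of those tested on the arrays. A GC box was found for 14 of 15 sterol arm genes, 3 of 7 fatty acid arm genes and 5 of 5 regulators. The shares were 38.2% of all genes and 63.3% of those tested. Both boxes stood in 13 of 15 sterol arm genes (86.7%), 2 of 7 fatty acid arm genes (28.6%) and 4 of 5 regulators (80%). Among tested genes 27.2% held both. The E-box was found for 3 of 15, 1 of 7 and 2 of 5, beside 11% of tested genes. A gene with several windows counted if any of them held the motif. The strict core TCACNCCAC was found for Hmgcs1 alone, beside 1.38% of tested genes. A match describes these letters and no binding was measured.

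Boxes stood both in members whose passages differed and in members whose passages overlapped. Sc5d, which stood higher at passage 7, held 1 NF-Y box and 4 GC boxes, and Mvd, which overlapped, held 2 and 1. Of the palmitate enzymes, Fasn held 3 NF-Y boxes and Acly 1 with 4 GC boxes, while the Elovl6 window held neither box. Hsd17b7, called lower, held 3 NF-Y boxes and 3 GC boxes, and Msmo1, lower without overlap, held 3 and 2. These genes are examples, and whether boxes go with the changes was not tested.

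Other genes of lipid handling were read from lists of the same kind. Their counts of calls stand beside 9.46% of all genes called lower and 10% called higher. In export, storage and the oxysterol response, 5 of 13 tested genes were called higher and 1 lower. Cyp27a1, an oxysterol-forming hydroxylase, read -1.09 and -0.67 at passage 7, against -2.78 and -3.03 at passage 2, a rise of 4.08-fold (limma adjusted p = 0.0098). Nr1h3, the oxysterol receptor LXR alpha, rose 4.04-fold (limma adjusted p = 0.0066), and the exporter Abcg1, the lysosomal sterol carrier Npc2 and the hydroxylase Ch25h rose 4.01-, 2.88- and 2.52-fold. The exporter Abca1, an LXR target like Abcg1, fell 2.40-fold (log2 -1.26 ± 0.20, limma adjusted p = 0.018), a call lost without either passage 7 array (-1.41 and -1.11) and without passage 2 replicate 2 (-1.19). The genes called higher numbered 4 without passage 7 replicate 1 or passage 2 replicate 2, and 3 without passage 7 replicate 2. The median change of the list was 0.67, 0.47 above that of all genes.

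Of 13 tested genes of acetyl-CoA, NADPH and acyl-CoA supply, 4 were called lower and none higher. With no minimum fold 5 were lower and 1 higher at an adjusted p under 0.05, the higher being Me1, the malic enzyme that makes NADPH (0.80 ± 0.19, limma adjusted p = 0.041). Acot1, an acyl-CoA thioesterase, read -2.54 and -2.63 at passage 7, against -0.00060 and -0.21 at passage 2, a fall of 5.56-fold (limma adjusted p = 0.0053). Acsl3, a long-chain acyl-CoA synthetase, fell 4.04-fold (limma adjusted p = 0.0069), and its relatives Acsl1 and Acsl4 fell 2.19- and 2.23-fold. The calls of Acsl1 and Acsl4 were lost without either passage 7 array and without passage 2 replicate 2, where 2 genes of the list were called lower. In fatty acid oxidation, 4 of 18 tested genes were called higher and none lower. With no minimum fold 5 were higher and 1 lower at an adjusted p under 0.05, the lower being Echs1, an enoyl-CoA hydratase (-0.76 ± 0.17, limma adjusted p = 0.039). Cpt1b, a carnitine palmitoyltransferase, rose 3.23-fold (limma adjusted p = 0.016), Acadvl, the very long chain acyl-CoA dehydrogenase, 2.11-fold (adjusted p = 0.025), and Slc25a20 and Ppard 2.04- and 2.05-fold. All 4 calls were lost without passage 7 replicate 1 and without passage 7 replicate 2, where Cpt1b stood at 1.69 and 1.70 and Acadvl at 1.13 and 1.03. Of the list, 2 genes were called higher under quantile normalisation, and 1 with median scaling and in the authors' table. The list's median was 0.52, 0.32 above that of all genes, and 16 of its 18 genes lay above 0.

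In glycerolipid synthesis 2 of 12 tested genes were called higher, Agpat1 and Lpin3 by 2.25- and 2.15-fold. Both calls were lost without passage 7 replicate 1 (1.17 and 1.02), without passage 7 replicate 2 (1.17 and 1.19) and without passage 2 replicate 2 (1.04 and 0.95), and that of Lpin3 also with median scaling (0.94) and in the authors' table (0.69). Gpam, the mitochondrial acyltransferase that starts the route, read -6.53 and -7.34 at passage 7, against -5.29 and -4.52 at passage 2. It was dim, passing the background flag on 1 of 2 arrays at passage 7, so it entered the fit through passage 2 alone. Its call there is not counted as a fall. With probes well above background on all 4 arrays no gene of the list was called lower, and the sign of Gpam turned with another background correction. The nonsterol isoprenoid branch, which leaves the sterol arm at farnesyl diphosphate, had 1 gene of 10 called lower, a share near that of all genes. Pdss1, which makes the side chain of coenzyme Q, fell 2.67-fold (limma adjusted p = 0.016), a call lost without passage 7 replicate 2 (-1.25). None of the 10 tested genes of other elongation and desaturation was called. None of the 7 tested genes of the proteases that cut SREBPs and of sterol-driven degradation was called either. Mbtps2, the site protease that frees the SREBPs inside the membrane, differed by -0.94 ± 0.21 (limma adjusted p = 0.038), short of 2-fold. Ufd1, a partner of the ATPase Vcp in degradation, differed the other way by 0.70 ± 0.17 (limma adjusted p = 0.046), while Syvn1, a ubiquitin ligase, at 1.14 ± 0.30 and Vcp at 0.78 ± 0.25 did not pass (0.054 and 0.085). The list's median was 0.35, and 5 of its 7 genes lay above 0.

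**Figure D5:**
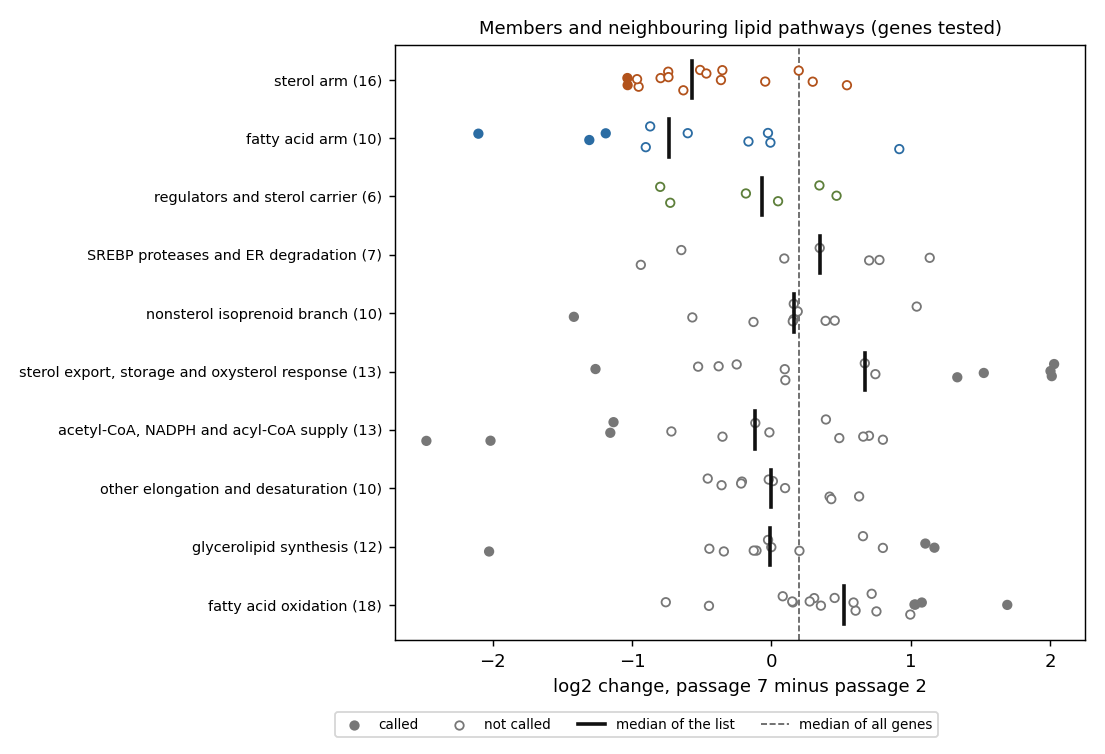
Log2 change, passage 7 minus passage 2, of every tested gene of the members' 3 groups (coloured) and of 7 neighbouring lipid pathways (grey), with the number of genes after each name. Filled symbols are called genes, thick bars the medians and the dashed line the median of all genes (0.20). Medians run from -0.73 in the fatty acid arm to 0.67 in sterol export. The filled symbol at -2.03 in glycerolipid synthesis is the dim gene Gpam.

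Other groups of genes moved between the same arrays. Counts of calls in these groups stand beside 9.46% of all genes called lower and 10% called higher. Of 14 proliferation genes, 12 were called lower, Cdk1 among them by way of passage 2 alone, since it was well above background on 1 of 2 arrays at passage 7. Top2a, the topoisomerase of dividing cells, was 6.51-fold lower at passage 7, and the summed level of the list was 30.8 to 31.1 at passage 7, against 117 to 119 at passage 2, in multiples of the array's 75th percentile. Of 10 adipocyte markers, 5 were tested. Fabp4, a fatty acid carrier, rose 4.41-fold (limma adjusted p = 0.014) and Lpl, a lipoprotein lipase, fell 4.09-fold (limma adjusted p = 0.0064). The summed level of adipocyte markers was 4.69 to 5.38 at passage 7, against 3.93 to 4.30 at passage 2. Genes with high signal weigh most in this sum, and Fabp4 read 1.78 and 1.35 at passage 7, against -0.27 and -0.88 at passage 2. The median change of the list was -0.41, 0.61 below that of all genes, and 3 of its 5 tested genes lay below 0. The defining markers Adipoq, Plin1, Cidec, Cfd and Lep were not well above background on both arrays of either passage. Macrophage markers, 3 of 5 tested being well above background on all 4 arrays, summed to 0.78 to 0.98 at passage 7, against 1.90 to 2.02 at passage 2. Csf1r and Mrc1 were called lower among these 3, and Adgre1, also called, entered the fit through passage 2 alone, as did Itgam, which was not called. Epithelial markers, 3 of 7 called lower, summed to 0.28 to 0.42 at passage 7, against 1.09 to 1.22 at passage 2. Of these 7, Epcam and Cdh1, neither called, entered through passage 2 alone. Endothelial markers, 1 of 6 called higher and none lower, summed to 0.73 to 0.75 at passage 7, against 0.49 to 0.50 at passage 2. Tek (-0.91) and Cdh5 (-0.71) stood lower without overlap, and 3 of the 6 higher without overlap. Pecam1 and Cdh5, neither called, entered through passage 2 alone. Fibroblast markers, 2 of 10 called lower and none higher, summed to 395 to 548 at passage 7, against 320 to 323 at passage 2. Those called lower were Lum and Pdgfra, while Thy1 (1.07), Col1a1 (1.04), Vim (0.84) and Fn1 (0.83) stood higher without overlap and did not pass (limma adjusted p = 0.065, 0.1, 0.11 and 0.057). Col1a2 (-0.73), Col5a1 (-0.64) and Dcn (-0.54) stood lower without overlap and did not pass either (limma adjusted p = 0.06, 0.14 and 0.09). The median change of the fibroblast list was -0.30, 0.50 below that of all genes. The part of proliferation and of other cell types in the differences of the sterol and fatty acid genes was not tested.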

How the data were processed

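Total RNA was labelled with Cy3 and hybridised to 1-colour Agilent arrays of a custom design, per the labels' protocols. Per the file headers, Agilent Feature Extraction 10.5.1.1 made the spot files. These deposited files hold processed and median signal intensity with flags. The authors' value table is deposited on a log2 scale. Its centring and background treatment are not given in the sources used here. The submitters' processing notes name limma. Of 43553 probes besides controls, 31850 cite a RefSeq accession, and 31089 of these matched a symbol (GRCm38.p6).

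From the processed intensity, log2 minus the array's 75th percentile was computed. Outlier spots (14 to 61 an array) were left out, none was saturated, and spots of a probe were averaged. The probe with the highest mean represented a gene. Genes whose probe passed the background flag on both arrays of a passage entered the fit (R 4.3.3, limma 3.58.1, functions lmFit and eBayes, 4 arrays, no covariate, Benjamini-Hochberg over 13823 genes, two-sided). The number of arrays limits the precision. The fit was tested on simulated data. Members, lists and tests were chosen with earlier results of these data known. Every member is named. Of each other pathway list the rule took up to 2 called rises and 2 called falls, and of marker lists the 2 brightest genes and any called adipocyte gene. Abcg1, Npc2, Ch25h, Acsl1, Acsl4, Me1, Slc25a20, Ppard, Echs1, Mbtps2, Ufd1, Syvn1, Vcp, Lum, Pdgfra, Col1a1, Col1a2, Col5a1, Dcn, Vim, Cdk1, Mrc1, Adgre1, Itgam, Epcam, Cdh1, Cdh5 and Pecam1 were named after their values were seen, and some marker genes the rule takes are given only in counts. Alternatives covered normalisation, background, filters, probe choice, variance model, threshold, a replicate block and left-out arrays. Promoter sequences are RefSeq's.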

Additional observations from a re-analysis of the deposited data

How the results depend on the processing

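The medians of both arms stayed below that of all genes under every alternative run, and the difference between the arms stayed above 0, at 0.043 to 0.30. Median scaling, the variance model, no minimum fold and the replicate block could not move these values. The filters could not move the difference between the arms, since all tested members passed them. The number of members called lower moved from 5 to 10 in the authors' value table and under quantile normalisation, to 9 with median scaling and with no minimum fold (1 called higher there), to 3 with the mean of all probes, to 2 with no filter on dim probes, to 0 under normexp and to 3 under normexp with marked backgrounds replaced, an alternative chosen after seeing the data. It was 5 with a filter on all 4 arrays and with trended, robust variances. Under normexp no gene of the 13823 was called by limma, with 666 at an unadjusted p under 0.05, and the 5 calls were lost, that of Elovl6 at -1.70 (limma adjusted p = 0.56). For normexp the median spot signal stood in for the planned mean signal, with an offset of 50. With single arrays left out, the number lower ran from 1 to 5, and 0 or 1 member was called higher. The called member probes numbered 12 under quantile normalisation, median scaling and no minimum fold, 14 in the authors' table, 0 under normexp and with no filter, 1 with marked backgrounds replaced, and 0 to 2 with single arrays left out.

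The sterol arm median relative to all genes was -0.85 under quantile normalisation, -1.19 under normexp, -0.84 with marked backgrounds replaced, -0.71 in the authors' table, -0.90 with no filter and -0.82 to -0.72 with arrays left out. The fatty acid arm median was -1.15, -1.33 and -1.14 under the first 3 of these, -1.06 with no filter, -1.07 without Acly (chosen after seeing the data) and -1.01 to -0.78 with arrays left out. Under normexp the sign turned for the members Cyp51 (0.33), Fdft1 (0.84), Nsdhl (0.87), Scap (-0.22) and Insig1 (-0.55). Gpam turned to 1.44 under normexp and 0.28 with marked backgrounds replaced. Of 480 member values under alternatives, 26 had another sign than the main one. The 480 include values that could not differ from the main one. These are from the filters, the variance model, no minimum fold and the replicate block. The cause of these moves was not tested.

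The share of all calls that were higher was 51.4%, against 35.3% in the authors' table, 41.2% with median scaling and 42.2% under quantile normalisation, where the median change of all genes was -0.06, 0.03 and 0.02. The replicate numbers share no stated pairing, and the correlation of the replicate differences between passages was -0.17. With the replicate number as a block, 1 member (Elovl6) and 0 member probes were called. A slide or scan block was not run, with 1 slide and 1 scan. Dim genes are limited by signal over background.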
